A study of Mus musculus with 18 samples.

Results

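Hyaluronan is a long, unbranched sugar polymer that cells spin directly into the extracellular space, and this report follows 7 genes that make it, cut it or bind it. They were Has1, Has2 and Has3 (synthases), Hyal1 and Hyal2 (hyaluronidases), Cd44 (the main cell-surface receptor) and C1qbp (a hyaluronan-binding protein found mostly in the mitochondrial matrix). They were picked by gene symbol, with earlier results of these data known, from 24028 genes in the count table. All 7 were in the table, and all 7 passed the filter on low counts that left 13602 genes for testing. Because the set was put together with results in view, its counts and medians below are descriptions of these genes and support nothing beyond them. A p-value given for a gene was adjusted over all 13602 genes, not over the 7.

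Hyaluronan synthases sit in the plasma membrane and join UDP-glucuronic acid and UDP-N-acetylglucosamine. Has2 is the synthase needed for mouse heart development, Has1 is usually the least active isoform, and Has3 is generally described as making shorter chains. Hyal2 and Hyal1 act in turn outside the cell and in the lysosome. CD44 binds the polymer at the cell surface, and in muscle precursor cells CD44 and hyaluronan have been linked to migration and fusion.

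RNA-seq read counts came from 18 cultures of C2C12, an immortal mouse myoblast line, in 6 groups of 3 separate cultures. The lines carried doxycycline-inducible mouse Dux, human DUX4 or firefly luciferase. DUX4 and its mouse counterpart Dux are transcription factors with a pair of homeodomains, normally active in the early embryo, and both transgenes were codon-altered. For each line, induced cultures had 2 µg/ml doxycycline for 36 h and uninduced cultures had none. All cultures were kept under puromycin, so the groups shared the selection, and each transgene was represented by a single clonal line. The sources used here do not give the promoter that drives the transgene. Clone, line and transgene therefore cannot be told apart, and in bulk RNA fewer cells of a type cannot be told apart from less RNA per cell.

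Library totals ranged from 11010586 to 17179642 counts. Induced mouse Dux library 1 stood apart from the other 2 libraries of its group, with a chi-square per degree of freedom of 34.2 and 36.7 against them. Every other replicate pair lay between 1.26 and 5.25. Uninduced mouse Dux library 1, which had the lowest total, also stood apart, but less far. It had 5.16 and 5.25 against libraries 2 and 3 of its group, which had 1.26 between them. The response of each member to mouse Dux is also given without induced library 1. Reads assigned to the endogenous Dux gene numbered 71 in induced and 3 in uninduced mouse Dux cultures, and 3 to 5 in each of the other 4 groups; the transgenes were codon-altered, so this does not measure them. Levels are given as CPM, read counts scaled to a common library total with TMM factors. The summed level of 6 myoblast markers (Myod1, Myf5, Des, Cdh15, Itga7 and Msc) was 1190 to 1300 CPM in induced and 1220 to 1280 CPM in uninduced mouse Dux cultures. It was 169 to 181 CPM in induced and 477 to 502 CPM in uninduced human DUX4 cultures, and 1880 to 1990 CPM in induced and 2500 to 2530 CPM in uninduced luciferase cultures. Des makes up most of that sum in the mouse Dux line, with 948 ± 48.2 CPM in induced and 718 ± 24.4 CPM in uninduced cultures. There 4 of the 5 tested markers were lower, with log2 fold changes of Cdh15 at -1.80, Myod1 at -0.48, Itga7 at -0.42 and Myf5 on 2 reads in induced and 11 in uninduced cultures, and Des was higher (0.4). With human DUX4 4 of 5 were lower and 1 higher, and with luciferase all 5 were lower. The part of these markers in the values below was not tested. The summed level of 5 leukocyte and macrophage markers was 33.9 to 36.3 CPM in induced and 3.32 to 4.38 CPM in uninduced human DUX4 cultures, with Ptprc, which defines leukocytes, at 0 in all 6 of these libraries. In the human DUX4 line that sum was mostly Cd68 and Csf1r. Cd68 had 20.9 ± 1.64 CPM in induced and 1.74 ± 0.0532 CPM in uninduced cultures, and Csf1r 12.4 ± 1.05 and 2.26 ± 0.585 CPM. Itgam had 91 reads in induced and 1 in uninduced cultures of that line. In the other 4 groups the leukocyte and macrophage sum was 3.62 CPM or less. The sum of 4 epithelial markers was 0.835 to 1.19 CPM in induced and 15.3 to 16.6 CPM in uninduced human DUX4 cultures. In the other 4 groups it was 6.45 to 12.8 CPM. It was mostly Krt14 in the human DUX4 line (0.897 ± 0.147 CPM in induced and 15.8 ± 0.679 CPM in uninduced cultures). Epcam was at 0 in all 6 libraries of that line. The sum of 4 endothelial markers was 22.5 to 24.7 CPM in induced and 23.7 to 27.2 CPM in uninduced luciferase cultures, and at most 1.47 CPM in the other 4 groups. In the luciferase line that sum was almost all Cdh5 (23.4 ± 1.14 CPM in induced and 25.4 ± 1.8 CPM in uninduced cultures), with Kdr at 0 in all 6 libraries. Cd44 is abundant in leukocytes, and the part of these markers in its values was not tested.

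With mouse Dux, 5 of the 7 genes passed an adjusted p of 0.05 in edgeR's quasi-likelihood F test, 4 higher and 1 lower. Among all genes tested, 68.9% passed, 34.1% higher and 34.8% lower. Without induced library 1 the count was 4, 3 higher and 1 lower, where 34.9% of all genes were higher and 37.2% lower. With human DUX4, 6 of the 7 passed, 4 higher and 2 lower, where 67.6% of all genes passed, 34.4% higher and 33.1% lower. With luciferase 1 of the 7 passed, as a fall, where 31.1% of all genes passed, 14.7% higher and 16.4% lower. The median log2 fold change of the 7 genes was 0.73 with mouse Dux, 0.55 with human DUX4 and -0.05 with luciferase, and that of all genes was -0.01, 0 and 0.

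**Figure D1:**
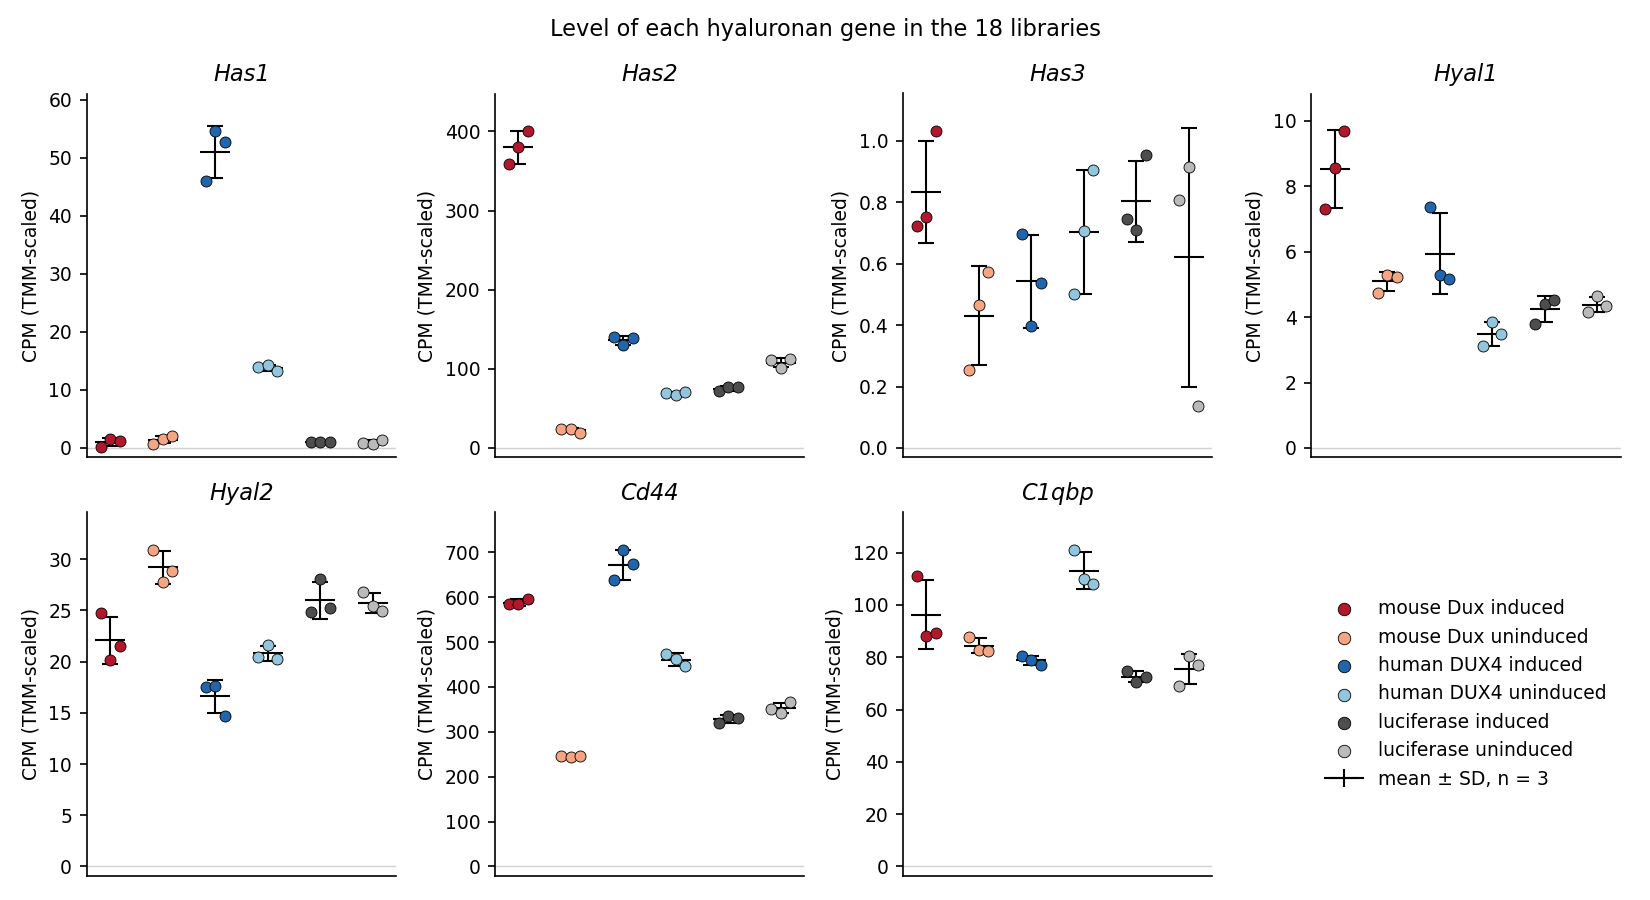
Level of each of the 7 genes in all 18 libraries, in CPM (TMM-scaled) on an axis that differs between panels; points are libraries, and the horizontal line and bar are the mean and SD of 3. Has2 reached 359 to 400 CPM in induced mouse Dux cultures, Has1 reached 45.9 to 54.5 CPM in induced human DUX4 cultures, and Has3 stayed at or under 1.03 CPM in every library.

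Has2 was the synthase that changed most with mouse Dux. It had 359, 380 and 400 CPM in the 3 induced mouse Dux libraries, against 24.4, 23.9 and 19.5 CPM in the 3 uninduced ones. The groups lay far apart, and the difference was a 16.8-fold rise (log2 4.07, SE 0.0759, adjusted p = 2.52e-19); without library 1 it was 4.1. With human DUX4 it had 140, 130 and 139 CPM in induced libraries and 69.8, 67.1 and 70.2 CPM in uninduced ones. That was a 1.97-fold rise (log2 0.98, SE 0.0671, adjusted p = 1.1e-10), again with no overlap. Has2 went the other way in the luciferase line, with 71.4, 76.5 and 77.3 CPM in induced libraries and 111, 101 and 112 CPM in uninduced ones. That was a fall (log2 -0.52, SE 0.0666, adjusted p = 5.03e-06). The 6 group means ran, high to low, through induced mouse Dux (380 CPM), induced human DUX4 (136), uninduced luciferase (108), induced luciferase (75.1), uninduced human DUX4 (69) and uninduced mouse Dux (22.6). No neighbouring groups in that order overlapped, and the mouse Dux line held both ends of it. Has2 lies at chr15:56665627-56694539 (GRCm38, minus strand), and 182 of its exonic bases are shared with Has2os on the opposite strand, which had 9 to 29 counts per group.

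Has1 rose with human DUX4. It had 45.9, 54.5 and 52.7 CPM in induced human DUX4 libraries and 14, 14.3 and 13.3 CPM in uninduced ones, a 3.68-fold rise (log2 1.88, SE 0.137, adjusted p = 2.66e-10). Every human DUX4 library, induced or not, was above every library of the other lines. In the mouse Dux line it had 0.197, 1.58 and 1.17 CPM in induced libraries and 0.764, 1.51 and 1.98 CPM in uninduced ones. These groups overlapped, and the log2 difference of -0.63 (SE 0.413, adjusted p = 0.187) did not pass. It rested on few reads, 40 in the induced group and 66 in the uninduced one, and was -0.12 (adjusted p = 0.761) without induced library 1 and -1.15 (adjusted p = 0.0381) without induced library 2. In the luciferase line it had 0.995, 0.968 and 1.01 CPM in induced libraries and 0.865, 0.731 and 1.38 CPM in uninduced ones (log2 0.03, SE 0.427, adjusted p = 0.992). Has1 lies at chr17:17843323-17855205 (minus strand).

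Has3 was near the limit of detection everywhere. It had 0.723, 0.751 and 1.03 CPM in induced and 0.255, 0.464 and 0.573 CPM in uninduced mouse Dux libraries. It had 0.696, 0.396 and 0.536 CPM in induced and 0.5, 0.705 and 0.905 CPM in uninduced human DUX4 libraries. In the luciferase line it had 0.746, 0.71 and 0.954 CPM in induced and 0.808, 0.914 and 0.138 CPM in uninduced libraries. Each group overlapped the next in order of level, and no induction comparison passed: log2 0.88 with mouse Dux (95% interval 0.01 to 1.75, adjusted p = 0.0862; 0.97 without induced library 1), -0.35 with human DUX4 (-1.21 to 0.51, adjusted p = 0.494) and 0.33 with luciferase (-0.44 to 1.1, adjusted p = 0.58). With 20 to 39 reads per group the intervals are wide, and changes inside them are not excluded. Has3 (chr8:106870242-106884566, plus strand) shares 352 exonic bases with Chtf8 on the opposite strand, and without strand in the counting its few reads are uncertain. Chtf8 itself had 140 ± 8.92 CPM in induced and 90.4 ± 2.18 CPM in uninduced mouse Dux cultures. It had 80 ± 1.31 and 100 ± 0.605 CPM with human DUX4, and 146 ± 1.14 and 132 ± 2.37 CPM with luciferase. In each line its means went the same way as those of Has3. The part of Chtf8 reads in the Has3 values was not tested.

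On a per-length scale the synthases can be set beside each other. Their summed level was 89.9 ± 4.99 CPM per kilobase of exon in induced and 5.72 ± 0.512 in uninduced mouse Dux cultures (SD, n = 3 each). It was 43.5 ± 0.894 in induced and 19.5 ± 0.312 in uninduced human DUX4 cultures, and 18.1 ± 0.768 in induced and 25.7 ± 1.47 in uninduced luciferase cultures. Has2 made up most of that sum in every group: 99.6% ± 0.174 in induced and 93.2% ± 3.39 in uninduced mouse Dux cultures, and 98.1% ± 0.125 in induced and 98.8% ± 0.0339 in uninduced luciferase cultures. In the human DUX4 line its share was smaller, 73.8% ± 2.31 in induced and 83.7% ± 0.753 in uninduced cultures. Has1 supplied nearly all of the rest there, 26% ± 2.37 in induced and 15.7% ± 0.808 in uninduced cultures, against group means between 0.237% and 5.62% in the other lines. Has3 supplied 1.21% or less of the mean in each group.

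**Figure D2:**
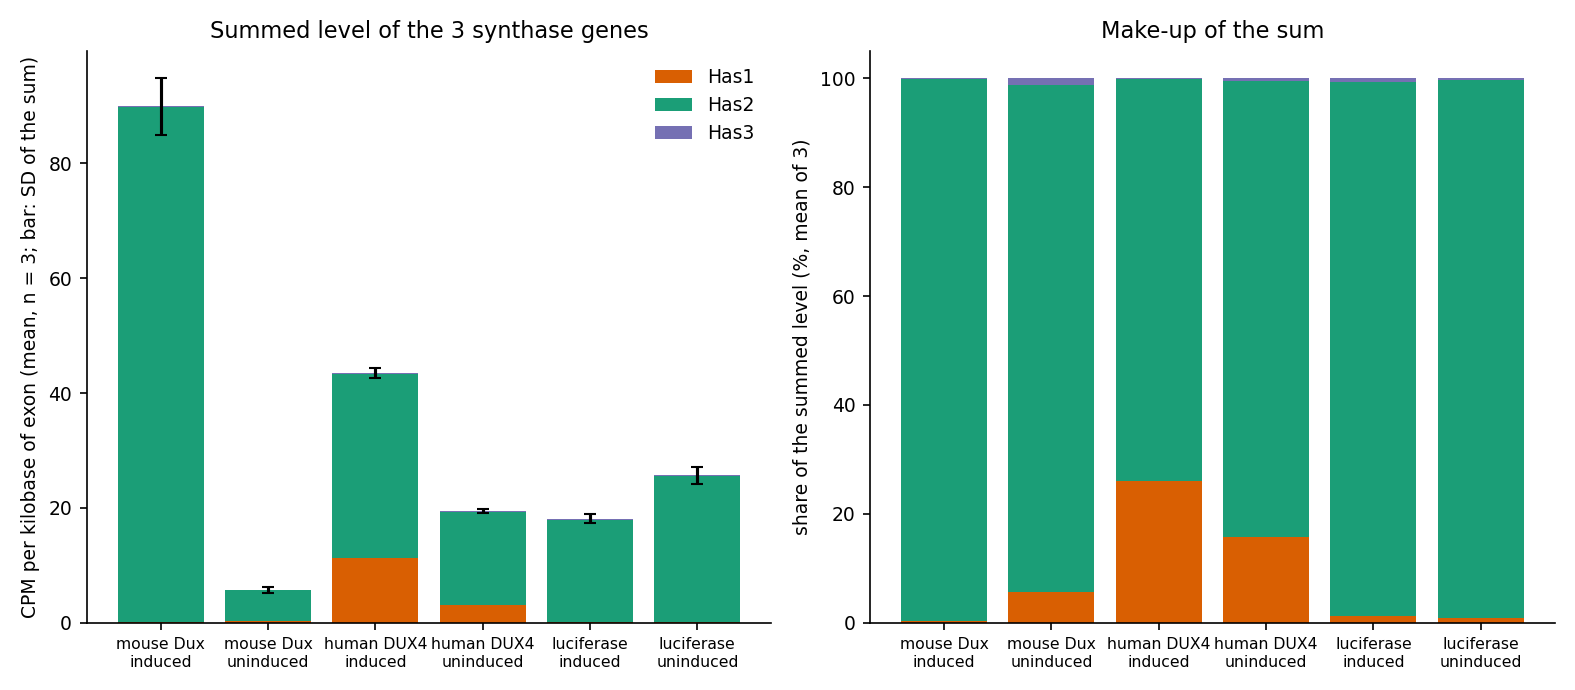
Left, summed level of the 3 synthase genes in CPM per kilobase of exon (mean of 3 libraries, bar: SD of the sum); right, the share of each synthase in that sum (%, mean of 3), by group. Induced mouse Dux cultures had the tallest bar (89.9 CPM per kilobase), nearly all Has2, and Has1 took 26% of the sum in induced human DUX4 cultures.

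The 250 bases before and 50 bases after the annotated start were at hand for 5 of the 7 genes (RefSeq, GRCm38.p6): Has1, Hyal1, Hyal2, Cd44 and C1qbp, and for Has2 and Has3 none is shown. Has1 and Cd44 are printed, Has1 as the gene with the largest human DUX4 response of the 7 and Cd44 as the receptor gene that rose with both factors. Capitals mark the first transcribed base and, in Has1, the matches to TGACG, the core of a cyclic AMP response element. Has1 is chr17:17855139-17855438 and Cd44 is chr2:102901616-102901915, both read from the minus strand.
Has1: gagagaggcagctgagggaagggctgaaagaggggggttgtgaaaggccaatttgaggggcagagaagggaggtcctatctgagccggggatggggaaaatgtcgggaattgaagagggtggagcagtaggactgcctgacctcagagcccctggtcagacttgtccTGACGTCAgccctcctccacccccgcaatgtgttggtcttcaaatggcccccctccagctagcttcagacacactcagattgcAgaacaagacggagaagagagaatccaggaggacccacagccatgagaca
Cd44: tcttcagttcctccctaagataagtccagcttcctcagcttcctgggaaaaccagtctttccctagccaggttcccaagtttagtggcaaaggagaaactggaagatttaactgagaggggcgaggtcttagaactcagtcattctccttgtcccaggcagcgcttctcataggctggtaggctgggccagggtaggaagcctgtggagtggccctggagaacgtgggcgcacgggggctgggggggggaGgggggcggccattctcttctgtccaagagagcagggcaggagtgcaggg

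Both strands of the 5 windows were searched for the core of the human DUX4 site (TAA and AATCA with 3 bases of any kind between them), for a core of the mouse Dux site (TGATT and AATCA with 1 base between them), and for their shared end AATCA. These letters were in none of the 5 windows. Among all 32851 promoter windows of the same length, 1.03% held the first, 0.0335% the second and 37% the third. The Has1 window held TGACG at base -83 on the plus strand of the window and at base -80 on its minus strand, in overlapping positions, and 20.8% of all windows held it. C1qbp held TGANTCA, the AP-1 site, at base -106, and 7.81% of all windows held it. GC content was 57% to 62% in the 5 windows, and the median of all windows was 52.7%.

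The 2 hyaluronidase genes moved in opposite directions, and in the same directions with both transcription factors. Hyal1, the lysosomal enzyme, had 7.3, 8.56 and 9.67 CPM in induced and 4.75, 5.28 and 5.23 CPM in uninduced mouse Dux libraries. All induced values were above all uninduced ones, a rise of 1.66-fold (log2 0.73, SE 0.139, adjusted p = 0.000116; 0.82 without induced library 1). With human DUX4 it had 7.37, 5.28 and 5.16 CPM in induced and 3.13, 3.85 and 3.47 CPM in uninduced libraries, a rise of 1.7-fold (log2 0.77, SE 0.157, adjusted p = 0.000243) with no overlap. With luciferase it had 3.79, 4.39 and 4.53 CPM in induced and 4.15, 4.63 and 4.35 CPM in uninduced libraries (log2 -0.05, SE 0.155, adjusted p = 0.866). These groups overlapped.

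Hyal2, the enzyme anchored at the cell surface that makes the first cuts, had 24.7, 20.2 and 21.5 CPM in induced and 30.9, 27.8 and 28.8 CPM in uninduced mouse Dux libraries. It fell by 0.39 on the log2 scale (SE 0.0807, adjusted p = 0.000267), with no overlap; without induced library 1 the difference was -0.49. With human DUX4 it had 17.5, 17.6 and 14.7 CPM in induced and 20.5, 21.6 and 20.3 CPM in uninduced libraries, and it fell by 0.33 (SE 0.0864, adjusted p = 0.00236), again with no overlap. With luciferase it had 24.8, 28.1 and 25.2 CPM in induced and 26.8, 25.4 and 24.9 CPM in uninduced libraries (log2 0.02, SE 0.0783, adjusted p = 0.912). Per kilobase, Hyal2 was above Hyal1 in every group mean, at 6.71 and 2.25 CPM per kilobase in induced mouse Dux cultures and at 5.03 and 1.57 in induced human DUX4 cultures.

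Hyal2 (chr9:107567945-107572779) and Hyal1 (chr9:107576927-107581710) lie 4148 bases apart on the plus strand. Hyal1 shares 1920 of its 3777 exonic bases with Naa80 (listed as Nat6) and 159 with Hyal3, on the same strand, so its reads are uncertain. Nat6 itself had 12.3 ± 1.94 CPM in induced and 13.2 ± 0.371 CPM in uninduced mouse Dux cultures (log2 -0.10, adjusted p = 0.432). It had 12.1 ± 0.495 CPM in induced and 8.5 ± 1.32 CPM in uninduced human DUX4 cultures, a rise of 0.5 on the log2 scale (adjusted p = 0.000903). The part of Nat6 reads in the Hyal1 values was not tested.

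Cd44 rose with both factors. It had 585, 584 and 596 CPM in induced mouse Dux libraries and 247, 244 and 245 CPM in uninduced ones. The groups were tight and far apart, a 2.4-fold rise (log2 1.26, SE 0.0453, adjusted p = 6.93e-15; 1.25 without induced library 1). With human DUX4 it had 638, 705 and 674 CPM in induced libraries and 474, 462 and 446 CPM in uninduced ones, a 1.46-fold rise (log2 0.55, SE 0.0444, adjusted p = 1.55e-09). With luciferase it had 320, 336 and 331 CPM in induced libraries and 351, 342 and 366 CPM in uninduced ones. These did not overlap, with induced below uninduced, but the log2 difference of -0.10 (SE 0.0446, adjusted p = 0.101) did not pass; it passed in a fit of the luciferase libraries alone (adjusted p = 0.00485) and in DESeq2 (-0.12, adjusted p = 0.0267). The order of means was induced human DUX4 (672 CPM), induced mouse Dux (588), uninduced human DUX4 (461), uninduced luciferase (353), induced luciferase (329) and uninduced mouse Dux (245), with no overlap between neighbours. Per kilobase of exon Cd44 had the highest mean level of the 7 genes in every group except induced mouse Dux cultures. There it stood at 86.8 ± 1.02 CPM per kilobase and Has2 at 89.6 ± 4.85, a gap smaller than the SD of Has2. The gene lies at chr2:102811141-102901665 (minus strand), and the table gives a single value for all its splice forms.

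C1qbp, the hyaluronan- and complement C1q-binding protein gene (chr11:70977836-70983026, minus strand), fell with human DUX4, and its small rise with mouse Dux rested on 1 library. With human DUX4 it had 80.6, 78.9 and 77.2 CPM in induced libraries and 121, 110 and 108 CPM in uninduced ones, a fall of 0.52 on the log2 scale (SE 0.0765, adjusted p = 5.71e-06) with no overlap. With mouse Dux it had 111, 88.2 and 89.2 CPM in induced libraries and 87.7, 82.9 and 82.5 CPM in uninduced ones (log2 0.19, SE 0.0769, adjusted p = 0.0321). Induced library 1 was the high value, and without it the difference was 0.06 (adjusted p = 0.302). The call was also lost without uninduced library 2 or 3 (0.18 each, adjusted p = 0.0894 and 0.0938), and scaling by library size alone turned the sign (-0.05, adjusted p = 0.547). In the luciferase line it had 74.9, 70.4 and 72.4 CPM in induced libraries and 68.9, 80.3 and 77.2 CPM in uninduced ones (log2 -0.06, SE 0.0775, adjusted p = 0.639).

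**Figure D3:**
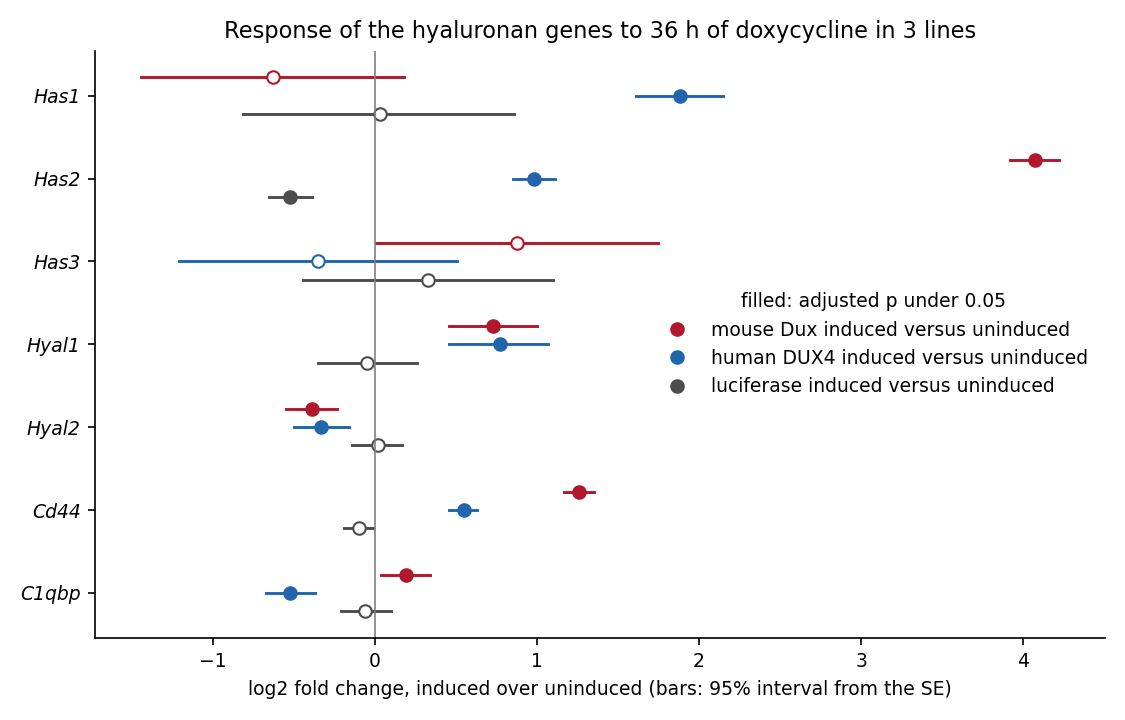
Log2 fold change, induced over uninduced, of each gene in the 3 lines (points; bars: 95% interval from the SE; filled points passed an adjusted p of 0.05). Has2 with mouse Dux (4.07) and Has1 with human DUX4 (1.88) stand farthest to the right for their lines, and the Hyal1 and Hyal2 points of the 2 factors lie close together.

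Whether the responses differed was tested within the same model. Between mouse Dux and human DUX4, 4 of the 7 genes differed, 3 with a higher response to mouse Dux and 1 with a lower, where 65.2% of all genes differed, 32.9% higher and 32.3% lower. The Has2 response was higher with mouse Dux by 3.09 (SE 0.0992, adjusted p = 3.04e-15) and that of Cd44 by 0.72 (SE 0.063, adjusted p = 6.34e-09). The C1qbp response was higher by 0.71 (SE 0.108, adjusted p = 9.92e-06). The Has1 response was lower with mouse Dux by 2.51 (a difference of -2.51, SE 0.436, adjusted p = 4.9e-05), and -1.97 without induced mouse Dux library 1. For Hyal1 the difference was -0.04 (95% interval -0.44 to 0.37, adjusted p = 0.909) and for Hyal2 -0.06 (-0.3 to 0.17, adjusted p = 0.673). Differences inside these intervals are not excluded. For Has3 it was 1.24 (0.01 to 2.46, adjusted p = 0.0913), and it passed in a fit of only the groups compared (1.23, adjusted p = 0.0435).

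Against the luciferase line, 4 of the 7 genes responded differently to mouse Dux, 3 higher and 1 lower, where 60% of all genes did, 30.4% higher and 29.5% lower. Against the same line, 6 of the 7 responded differently to human DUX4, 4 higher and 2 lower, where 55% of all genes did, 28.3% higher and 26.7% lower. Both sets of differences share the luciferase libraries and are given side by side. For Has2 the difference was 4.59 with mouse Dux and 1.5 with human DUX4, for Cd44 1.36 and 0.65, for Hyal1 0.78 and 0.81, and for Hyal2 -0.41 and -0.35, and all 8 passed. The Hyal2 difference with human DUX4 (adjusted p = 0.0172) no longer passed when library 3 of the induced human DUX4 cultures was left out (-0.26, adjusted p = 0.065). The same held for library 2 of the induced luciferase cultures (-0.29, adjusted p = 0.0525). For Has1 the difference with human DUX4 was 1.86 (SE 0.463, adjusted p = 0.0021), and with mouse Dux it was -0.65 (adjusted p = 0.367). For C1qbp it was -0.47 with human DUX4 (adjusted p = 0.00124) and 0.25 with mouse Dux (adjusted p = 0.0562). The mouse Dux value passed with median-of-ratios scaling (0.28, adjusted p = 0.0332), in DESeq2 (0.28, adjusted p = 0.0355), and when uninduced luciferase library 1 or induced mouse Dux library 2 or 3 was left out (0.29 to 0.31, adjusted p between 0.0208 and 0.0292). It was 0.12 (adjusted p = 0.153) without induced mouse Dux library 1.

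The 3 lines already differed before induction. In the uninduced mouse Dux line, 2 of the 7 genes differed from the uninduced luciferase line, both lower, where 65.3% of all genes differed, 32.2% higher and 33.1% lower. These were Has2, 22.6 ± 2.71 CPM in the mouse Dux line and 108 ± 6.18 CPM in the luciferase line (log2 -2.26, SE 0.0743, adjusted p = 1.85e-15), and Cd44, 245 ± 1.35 CPM in the mouse Dux line and 353 ± 11.8 CPM in the luciferase line (log2 -0.53, adjusted p = 3.9e-09). In the uninduced human DUX4 line 5 of the 7 differed from luciferase, 3 higher and 2 lower, where 73% of all genes differed, 36% higher and 37% lower. Has1 was 14.1-fold higher, at 13.8 ± 0.519 CPM in the human DUX4 line and 0.993 ± 0.343 CPM in the luciferase line (log2 3.82, SE 0.25, adjusted p = 4.51e-11). C1qbp (0.59, adjusted p = 1.07e-06) and Cd44 (0.39, adjusted p = 2.11e-07) were also higher in the human DUX4 line. Has2 (-0.64, adjusted p = 5.08e-08) and Hyal2 (-0.31, adjusted p = 0.00228) were lower there. Between the uninduced mouse Dux and human DUX4 lines 6 of the 7 differed, 2 higher and 4 lower in the mouse Dux line, where 66.4% of all genes differed, 33.1% higher and 33.3% lower. Hyal1 (0.55) and Hyal2 (0.48) were the higher genes and Has1 (-3.23), Has2 (-1.61), Cd44 (-0.91) and C1qbp (-0.43) the lower ones. Among the uninduced lines Has2 was thus lowest in the mouse Dux line, and Has1 was highest in the human DUX4 line.

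Other genes of the pathway were taken from lists put together with earlier results of these data known. For each list the text gives the genes called and at most the 3 with the largest changes. The counts stand beside the shares of all genes tested: 34.1% higher and 34.8% lower with mouse Dux, 34.4% and 33.1% with human DUX4, and 14.7% and 16.4% with luciferase. The all-gene medians were -0.01, 0 and 0. The nucleotide sugars come from glucose and fructose 6-phosphate through 7 listed genes, of which 6 were tested and Gfpt2 was not. With mouse Dux 5 were higher and 1 lower, with a list median of 1.23, where 68.9% of all genes were called. Uap1, which makes UDP-N-acetylglucosamine, had 200 ± 6.93 CPM in induced and 51.7 ± 2.31 CPM in uninduced mouse Dux cultures (log2 1.95, SE 0.0506, adjusted p = 4.83e-17). Ugp2, which makes UDP-glucose, had 271 ± 15.8 CPM in induced and 85.5 ± 3.4 CPM in uninduced cultures (1.66, SE 0.0529), and Pgm3 rose by 1.47 (SE 0.0619). The gene that was lower was Ugdh, which oxidises UDP-glucose to UDP-glucuronic acid and is named here after its values were seen, at 126 ± 5.36 CPM in induced and 210 ± 5.83 CPM in uninduced cultures (-0.73, adjusted p = 1.36e-11).

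With human DUX4 the same 6 genes split, 3 higher and 3 lower, with a list median of -0.11, where 67.6% of all genes were called. Ugdh had 72.5 ± 1.35 CPM in induced and 262 ± 7.11 CPM in uninduced human DUX4 cultures, a fall of 1.86 (SE 0.0446, adjusted p = 1.91e-17). Ugp2 had 270 ± 3.92 CPM in induced and 112 ± 1.39 CPM in uninduced cultures, a rise of 1.27 (SE 0.0519). Gfpt1, the rate-limiting enzyme of the hexosamine pathway, had 48.4 ± 1.26 CPM in induced and 84.4 ± 1.92 CPM in uninduced cultures, a fall of 0.8 (SE 0.0882). With luciferase 1 of the 6 passed, Ugp2 at -0.31 (adjusted p = 0.000132).

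Of 9 other genes linked to hyaluronan breakdown, 4 were tested. With mouse Dux 1 was higher and 3 lower (list median -0.17), with human DUX4 all 4 were higher (0.67), and with luciferase 1 was higher and 2 lower (-0.25). The all-gene shares called were 68.9%, 67.6% and 31.1%. Cemip2, a hyaluronan-degrading enzyme of the cell surface (listed as Tmem2), had 211 ± 45.8 CPM in induced and 103 ± 13.6 CPM in uninduced mouse Dux cultures (log2 1.03, adjusted p = 1.22e-07; 1.18 without induced library 1). It had 182 ± 2.18 CPM in induced and 85.4 ± 1.84 CPM in uninduced human DUX4 cultures (1.09, adjusted p = 5.53e-08). With luciferase it had 142 ± 6.35 CPM in induced and 184 ± 2.93 CPM in uninduced cultures (-0.37, adjusted p = 0.0147), a call lost when induced library 1 was left out (-0.34, adjusted p = 0.0643). Cemip, which takes part in hyaluronan breakdown outside lysosomes, had 57.7 ± 1.24 CPM in induced and 22.4 ± 0.699 CPM in uninduced human DUX4 cultures (1.37, SE 0.0758). With luciferase it had 15.4 ± 1.81 CPM in induced and 27.8 ± 1.14 CPM in uninduced cultures (-0.86, SE 0.083). With mouse Dux it had 2.8 ± 0.491 CPM in induced and 3.75 ± 0.651 CPM in uninduced cultures (-0.40, adjusted p = 0.0359). That call was lost when induced library 1 was left out (-0.27, adjusted p = 0.213) and when uninduced library 1 was left out (-0.28, adjusted p = 0.184). Hexa, a gene of a lysosomal enzyme, was lower with mouse Dux (-0.18, adjusted p = 0.00731) and higher with human DUX4 (0.26, adjusted p = 0.00035) and luciferase (0.53, adjusted p = 1.99e-07).

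Of 5 other hyaluronan receptor genes 3 were tested, Hmmr, Layn and Stab2. With mouse Dux all 3 were lower (list median -0.49), with human DUX4 1 was higher and 1 lower (-0.36), and with luciferase 1 was lower (0.12), beside all-gene shares called of 68.9%, 67.6% and 31.1%. Hmmr, a receptor for hyaluronan-mediated motility that also works at the mitotic spindle, had 70.5 ± 9.33 CPM in induced and 93.5 ± 0.508 CPM in uninduced mouse Dux cultures (-0.41, adjusted p = 5.67e-05; -0.32 without induced library 1). It had 29.7 ± 2.28 CPM in induced and 137 ± 4.52 CPM in uninduced human DUX4 cultures (-2.20, SE 0.0772). In luciferase cultures it had 6.73 ± 0.528 CPM when induced and 42.3 ± 1.58 CPM when uninduced (-2.65, SE 0.0978), so the control line showed a fall as well. Layn was lower with mouse Dux (-0.49, adjusted p = 1.22e-05), and its rise with human DUX4 (0.22, adjusted p = 0.0152) was lost without induced library 2 or uninduced library 2 or 3 (adjusted p between 0.0818 and 0.0824). Stab2 rested on 4 reads in induced and 20 in uninduced mouse Dux cultures (-2.14, adjusted p = 0.0126).

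Among 18 genes listed for hyaluronan-binding or matrix proteins 6 were tested, Vcan, Bcan, Hapln4, Tnfaip6, Ptx3 and Habp4. With mouse Dux 3 were higher and 1 lower, with human DUX4 5 were higher and 1 lower, and with luciferase 1 was higher, Hapln4 (0.53, adjusted p = 0.000177), beside the same all-gene shares of 68.9%, 67.6% and 31.1%. Tnfaip6, whose product TSG-6 moves heavy chains of inter-alpha-inhibitor onto hyaluronan, had 460 reads in induced and 3 in uninduced mouse Dux cultures, a ratio of 163 (95% exact interval 55.3 to 791, counting error only). With human DUX4 it had 6.18 ± 0.452 CPM in induced and 73.3 ± 3.48 CPM in uninduced cultures, a fall of 3.57 (SE 0.102, adjusted p = 3.07e-15). Ptx3, a pentraxin of the same matrix, had 6.16 ± 1.05 CPM in induced and 0.629 ± 0.185 CPM in uninduced mouse Dux cultures (3.29, SE 0.272). In the human DUX4 line it had 40 ± 4.33 CPM in induced and 21.6 ± 0.526 CPM in uninduced cultures (0.89, SE 0.107). Vcan, the large proteoglycan versican, was lower with mouse Dux at 181 ± 65 CPM in induced and 269 ± 31.6 CPM in uninduced cultures (-0.58, adjusted p = 0.00511; -0.32 without induced library 1). Bcan was higher with human DUX4 at 2.4 ± 0.711 CPM in induced and 0.126 ± 0.165 CPM in uninduced cultures (4.08, SE 0.475). The list median was 1.77 with mouse Dux, or 0.27 over 5 genes once low-count genes were set to their bound or left out, 0.65 with human DUX4, and 0.11 with luciferase, or -0.06 in the same way.

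All 8 listed partners of CD44 were tested; they link it to actin, shed it or bind it. With mouse Dux 2 were higher and 4 lower (median -0.11), with human DUX4 3 higher and 4 lower (-0.06), and with luciferase 5 higher and 1 lower (0.2). The called counts of 6, 7 and 6 of 8 stand beside 68.9%, 67.6% and 31.1% of all genes. Ezr, encoding ezrin that ties the CD44 tail to actin, had 502 ± 28.5 CPM in induced and 159 ± 3.24 CPM in uninduced mouse Dux cultures (1.66, SE 0.0524). It had 930 ± 6.01 CPM in induced and 345 ± 8.68 CPM in uninduced human DUX4 cultures (1.43, SE 0.0514), and it also rose with luciferase (0.48, SE 0.0551). Spp1, encoding the CD44 ligand osteopontin, had 1550 ± 114 CPM in induced and 343 ± 2.77 CPM in uninduced mouse Dux cultures (2.17, SE 0.0545). In the human DUX4 line it had 44.8 ± 2.74 CPM in induced and 1110 ± 19.9 CPM in uninduced cultures, a fall of 4.63 (SE 0.0622, adjusted p = 1.91e-20). Mmp14, a membrane protease able to cleave CD44, was lower with mouse Dux at 223 ± 7.9 CPM in induced and 646 ± 13 CPM in uninduced cultures (-1.53, SE 0.0401). Rdx was lower with human DUX4 (-0.55), Msn was lower with luciferase (-0.43) and Spp1 higher with it (0.34, adjusted p = 4.43e-05).

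C1qbp was set beside 12 genes of the mitochondrial matrix that act in its translation, protein folding and DNA upkeep. With mouse Dux 5 were higher and 3 lower (median 0.06), with human DUX4 2 higher and 6 lower (-0.23), and with luciferase 2 higher and 4 lower (-0.14). The called counts of 8, 8 and 6 of 12 stand beside 68.9%, 67.6% and 31.1% of all genes, so with both factors they are near the background. The chaperonin gene Hspd1 had 479 ± 29.1 CPM in induced and 290 ± 7.3 CPM in uninduced mouse Dux cultures (0.73, SE 0.0528) and 289 ± 7.38 CPM in induced and 472 ± 12.1 CPM in uninduced human DUX4 cultures (-0.71, SE 0.0527). Its partner Hspe1 was higher with mouse Dux (0.39) and lower with human DUX4 (-1.11, SE 0.0757), and Hspa9 went the same ways (0.39 and -0.64). The Hspe1 rise with mouse Dux was 0.26 without induced library 1, and 0.15 (adjusted p = 0.0772) when scaled by library size alone. With luciferase Lonp1 (0.6) and Hspa9 (0.54) were higher and Gfm1 (-0.39) lower.

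**Figure D4:**
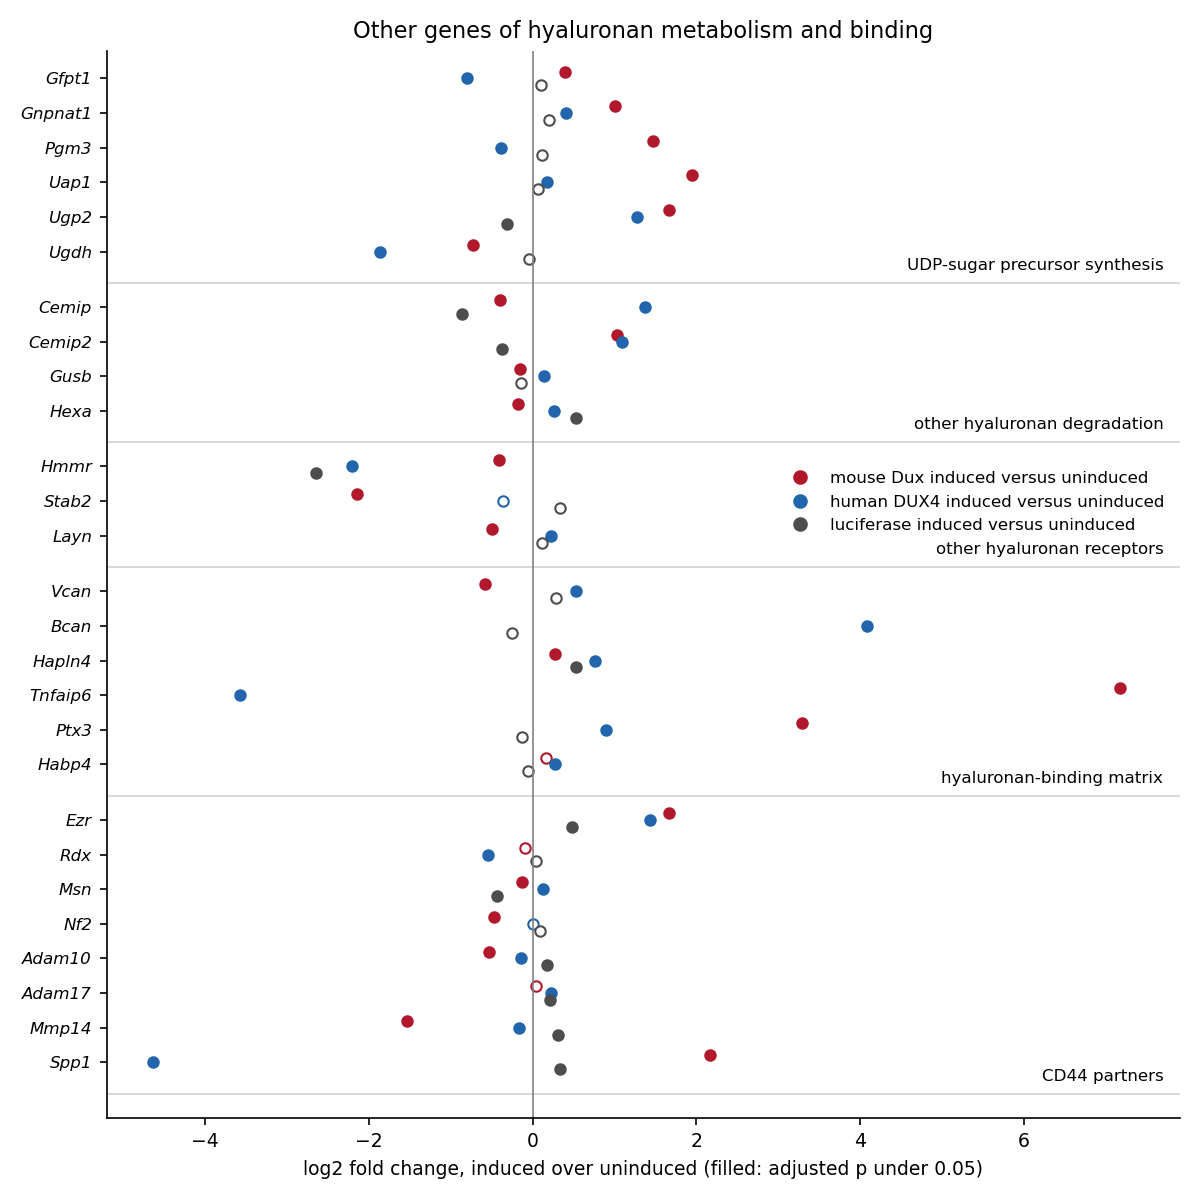
Log2 fold change, induced over uninduced, of the tested genes of 5 lists of hyaluronan metabolism and binding in the 3 lines; filled points passed an adjusted p of 0.05, and genes with 3 or fewer counts in both groups of a line have no point. Tnfaip6 and Spp1 lie on opposite sides of 0 with mouse Dux and human DUX4, and 5 of 6 precursor genes lie to the right of 0 with mouse Dux.

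The genes whose levels most resembled each member over the 18 libraries are given as a description; the libraries fall into 6 groups, share their lines and are not independent points. Has1 was closest to Cmtr1 (Pearson r = 0.983 of log2 CPM), Slain2 (0.977) and Sertad2 (0.977). Has2 was closest to Ncbp1 (r = 0.966), Plekha3 (0.96) and Swt1 (0.958), and Cd44 to Paqr8 (0.991), Iigp1 (0.984) and Tsc22d1 (0.978). C1qbp was closest to Nup43 (0.962), Hnrnpab (0.946) and Fbl (0.942). Hyal1 was closest to Chrdl1 (0.931), Dpy19l3 (0.926) and Selp (0.925), and Hyal2 to Cd9 (0.959), B4galt5 (0.951) and 1700037H04Rik (0.946). Has3, with the fewest reads, had no gene above E330020D12Rik (0.704), Tagap (0.63) and 4930577N17Rik (0.614).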

How the data were processed

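Polyadenylated RNA of 18 C2C12 cultures was sequenced from TruSeq libraries, and libraries were pooled, but the sources used here do not say which pool and lane held which library. The deposited values were whole-number counts of reads per gene, not normalized, made with CASAVA, TopHat2 2.0.12 and Bowtie2 2.2.3 against mm10, per the submitters' processing notes. How reads were counted, with which annotation and whether by strand, the sources used here do not state, so reads of overlapping and antisense genes are uncertain.

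The members, the gene lists and the alternatives were chosen with earlier results of these data known. Grouping and replicate numbering follow the labels. Genes were kept by filterByExpr by group, which left 13602 of 24028. Each contrast was tested in edgeR 4.0.16 (R 4.3.3; quasi-likelihood F test, two-sided) in a single model of 6 group means with TMM scaling, with Benjamini-Hochberg adjustment over all genes tested and a threshold of 0.05. The biological coefficient of variation was 6.25%. CPM used the TMM factors. CPM per kilobase divided by the merged exonic length of all transcripts of a gene in GENCODE (GRCm38). For Has1 that was 4518 bases from 2 transcripts, for Has2 4237 from 1 and for Cd44 6776 from 9. The synthase shares and all levels per kilobase depend on such lengths, and their SD does not cover that choice. SE was the log2 fold change over the square root of F, and 95% intervals are normal ones from it. All groups share a single estimate of the spread between cultures, and p-values refer to it. Besides the 7 members, at most 3 called genes per list and comparison are named by largest change, and the 3 most alike by Pearson r. Ugdh with mouse Dux was named after its values were seen. Another gene of the breakdown list is not reported here. Against a group with 1 to 3 counts a ratio with its exact interval is given; a group at 0 takes a floor of 3 counts, and both cover counting error only. The script was tested on simulated counts with a single spread for all genes, few changed genes and no deviant library. That test therefore does not check the p-values of these data. Alternatives were median-of-ratios scaling, library size alone, no filter, a replicate block, DESeq2 1.42.0, only the groups compared, and each library left out. These were extended to the named list genes and list counts after the data were seen.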

Additional observations from a re-analysis of the deposited data

Results flagged for a closer look

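Response differences between lines that passed an adjusted p of 0.05 in edgeR's interaction test are gathered here as values on the log2 scale, tested over 3 pairs of responses for 7 genes. Mouse Dux minus luciferase gave 4.59 for Has2, 1.36 for Cd44, 0.78 for Hyal1 and -0.41 for Hyal2. Human DUX4 minus luciferase gave 1.86 for Has1, 1.5 for Has2, 0.81 for Hyal1, 0.65 for Cd44, -0.35 for Hyal2 and -0.47 for C1qbp. Mouse Dux minus human DUX4 gave 3.09 for Has2, 0.72 for Cd44, 0.71 for C1qbp and -2.51 for Has1. Each line was a single clone, so line and transgene cannot be told apart in any of them.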

How the results depend on the processing

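Across the alternatives, 842 of the member values kept direction and call, 18 passed the threshold newly, 6 lost it and 13 changed sign; none of the sign changes was of a call except C1qbp with mouse Dux. Library size alone gave C1qbp -0.05 with mouse Dux and -0.01 for mouse Dux minus luciferase; it moved the all-gene median with mouse Dux to -0.249 (-0.00528 with TMM) and the calls to 3199 higher and 6922 lower, against 4643 higher and 4728 lower, and the share of higher calls to 32.2% for mouse Dux minus luciferase (50.7% with TMM) and 38.8% for mouse Dux minus human DUX4 (50.4%). The luciferase count of 1 became 2 in DESeq2, where 13% of all genes were higher and 17.4% lower. It also became 2 with only the groups compared, where 24.5% were higher and 25.2% lower. The count of 2 between uninduced mouse Dux and luciferase lines became 4 with library size alone, where 38.5% of all genes were higher and 28.4% lower. It was also 4 with only the groups compared, where 37% were higher and 37.8% lower. Between these lines Has3 was called newly without uninduced luciferase library 3 (-0.93, adjusted p = 0.0387). Leaving out a library, the counts ran 4 to 6 with mouse Dux, 6 to 6 with human DUX4, 1 to 1 with luciferase, 4 to 5 and 5 to 6 for mouse Dux and human DUX4 minus luciferase, 4 to 4 for mouse Dux minus human DUX4, and 2 to 3, 5 to 5 and 6 to 6 between uninduced lines (mouse Dux and luciferase, human DUX4 and luciferase, mouse Dux and human DUX4). All-gene shares higher and lower were then 32.1% to 34.9% and 32.5% to 37.2% with mouse Dux. With human DUX4 they were 32% to 32.3% and 31% to 31.3%, with luciferase 11.2% to 12.4% and 13.1% to 13.8%. For mouse Dux and human DUX4 minus luciferase they were 28.3% to 32.3% and 27.6% to 32.5%, and 26.4% to 26.8% and 24.7% to 25.3%. For mouse Dux minus human DUX4 they were 31.1% to 35.3% and 30.5% to 33.5%. Between uninduced lines they were 29.5% to 34.2% and 30.7% to 35.3%. Values that changed sign with a library left out were uncalled: Hyal1, mouse Dux minus human DUX4, -0.13 to 0.15; with luciferase, Hyal1 -0.1 to 0.03, Hyal2 -0.04 to 0.05, Has1 -0.15 to 0.31 and Has3 -0.09 to 0.68; and Has3 between uninduced human DUX4 and luciferase lines, -0.31 to 0.46. The cause was not tested. To compare replicate numbers, each gene's group mean was subtracted from its log2 CPM. The remainders of same-numbered induced and uninduced libraries of a line correlated between -0.0306 and 0.219 (mouse Dux libraries 1), over 0.1 in 2 of 9 pairs. The numbers were therefore not taken to pair the cultures. By these remainders 12 of 18 libraries were closest to their own number, a hint from the data, not the design. With the replicate block the counts were 5, 6, 1, 5, 6, 4, 3, 5 and 6 in the same order, with C1qbp 0.25 (adjusted p = 0.0483) for mouse Dux minus luciferase and Hyal2 0.18 (adjusted p = 0.0444) between uninduced mouse Dux and luciferase lines called newly. All-gene shares higher and lower in that fit, in the same order, were 34% and 34.8%, 34.5% and 33.3%, and 14.6% and 16.2%. For the response differences they were 30.4% and 29.7%, 28.4% and 26.6%, and 32.7% and 32.5%. Between uninduced lines they were 32.2% and 33.2%, 36% and 37%, and 33.1% and 33.3%. Calls in the list of other degradation genes with mouse Dux fell to 2 in DESeq2, where 34% of all genes were higher and 33.1% lower. They fell to 1 with only the groups compared, where 31.4% were higher and 29.6% lower. In that last fit the mouse Dux falls of Cemip, Hexa and Vcan no longer passed (adjusted p = 0.122, 0.103 and 0.087).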

Other observations

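The hyaluronidase cluster on chromosome 9 lies among genes that were counted in the same libraries. The changes below stand beside all-gene shares called of 68.9% with mouse Dux and 67.6% with human DUX4. Of the neighbours within 25 kb, Rassf1 was higher with mouse Dux (log2 0.51, adjusted p = 3.46e-06) and lower with human DUX4 (-0.63, adjusted p = 2.04e-07). Ifrd2 had 6.81 ± 0.251 CPM in induced and 21.9 ± 0.438 CPM in uninduced human DUX4 cultures (-1.68, adjusted p = 2.32e-12) and was higher with mouse Dux (0.42, adjusted p = 0.00026). Sema3b had 21.2 ± 0.721 CPM in induced and 86.1 ± 1.32 CPM in uninduced mouse Dux cultures (-2.02, adjusted p = 1.35e-17). Tusc2, between Rassf1 and Hyal2, was higher with human DUX4 (0.73, adjusted p = 2.52e-08), where Hyal2 was lower. Nprl2 was also higher with human DUX4 (0.97, adjusted p = 2.17e-06). With mouse Dux neither Tusc2 (-0.04, adjusted p = 0.64) nor Nprl2 (0.26, adjusted p = 0.0603) was called. Zmynd10, with 11 reads in induced and 30 in uninduced mouse Dux cultures, was lower there (-1.34, adjusted p = 0.0222).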
